A study of Mus musculus with 6 samples.

Results

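Integrins are cell surface receptors made of 1 α and 1 β subunit, and laminins are basement membrane proteins assembled from an α, a β and a γ chain. The genes described here are 22 integrin and 10 laminin subunits, 32 of the 25239 genes in the count table, taken by name from a list of members. Of these 32 genes, 31 passed the filter on low counts, and Itgb2, with 1 to 11 counts per library, did not. Integrins anchor epithelial cells to the sheet of laminin and collagen beneath them and pass signals in both directions across the membrane. In the thyroid, follicular cells sit on such a basement membrane, and the choice of α subunit sets which matrix protein a β1 receptor binds. Laminin chains differ in tissue: the α1 chain is known from early embryos and cultured endoderm, the α5 chain from many mature epithelia, and the α3 chain from epithelia that carry hemidesmosomes.

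All RNA came from organoids of 1 mouse embryonic stem cell line, G4 RosaLuc carrying TRE-Nkx2-1-Pax8 and bTg-NES-BrafV637E-ERT2, which was isolated by cloning. In it, doxycycline switches on Nkx2-1 and Pax8, which specify thyroid cells, and the bovine thyroglobulin promoter drives a Braf V637E-ERT2 fusion that tamoxifen activates, so that the oncogene is meant to act in thyroid cells only. Every organoid had received doxycycline at 1 µg/ml for 5 days and 8-Br-cAMP for 2 weeks, was enriched for follicles and was embedded again in growth factor reduced Matrigel, itself a laminin-rich matrix of mouse tumour cells. Non-thyroid cells of the cultures were reduced by this enrichment and not removed. The cAMP group stayed in 8-Br-cAMP with ethanol as vehicle, the 4OHT group also received 4-hydroxytamoxifen at 1 µM for 5 days, and the PD+LY group received 4-hydroxytamoxifen for 3 days together with PD0325901, a MEK inhibitor, at 250 nM and LY204002, given as a PI3K inhibitor, at 5 µM. The inhibitor protocol places 4 days of 4-hydroxytamoxifen before the inhibitors, so the days of 4-hydroxytamoxifen may differ between PD+LY and 4OHT and cannot be told apart there from the inhibitors. Each group holds 2 libraries of pooled wells taken at day 31, and p-values measure only the spread between these libraries. The comparisons ask how integrin and laminin transcripts differ when the oncogene is active, and when MEK and PI3K are inhibited with the oncogene still active.

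The 6 libraries held 14898409 to 20637959 counts. All 8 thyroid markers on a list fixed for this work reached 3 counts in every library, and so did all 7 pluripotency markers, whose summed level was 3190 to 4170 CPM. CPM are counts scaled by the library's total after TMM normalisation. The Braf row, which holds reads of the endogenous gene and possibly of the fusion, stood at 95.3 and 85.5 CPM in cAMP, 61.8 and 61.4 CPM in 4OHT and 59.2 and 48.1 CPM in PD+LY, with a log2 fold change of -0.55 in 4OHT against cAMP (edgeR adjusted p = 0.0165). It cannot check the labels, since 4-hydroxytamoxifen acts on the fusion protein. The ERK targets Spry4, Etv4 and Dusp6 were lower in PD+LY than in 4OHT, with log2 fold changes of -6.33, -6.18 and -2.45 (edgeR adjusted p = 1.18e-07, 2.98e-08 and 1.42e-06). Not all ERK targets moved in this way: Etv5, named after its values were seen, had 0.24 ± 0.09 in the same comparison (edgeR adjusted p = 0.0755). In 4OHT against cAMP, Dusp6 and Etv5 were lower (-0.72 and -0.54) and Etv4 was higher (0.80) with an adjusted p below 0.05. Nkx2-1 and Pax8 passed the test in no comparison, with log2 fold changes between -0.34 and 0.38.

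The laminin transcripts of these organoids were led by the chains of the α1β1γ1 trimer. Set per kilobase of exon, which allows levels of different genes to be compared, the mean over the 6 libraries was 163 CPM per kb for Lamc1, 115 for Lamb1 and 91.3 for Lama1, well above Lama5 at 18.2 and Lamb2 at 17.1. Lama3, Lamb3 and Lama4 followed at 1.6, 1.17 and 1.14 CPM per kb, and Lamc3 and Lama2 at 0.12 and 0.112. With the longest transcript as the length in place of all exons, Lamb1 stood above Lamc1 at 197 against 177 CPM per kb, Lamb2 above Lama5 at 18.5 against 18.2, Lama4 at 2.28 above Lama3 and Lamb3 at 1.63 and 1.6, and Lama2 above Lamc3 at 0.191 against 0.125. The order within each of these sets therefore depends on the length used.

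Among the integrins, the β1 subunit Itgb1, which pairs with most α subunits, had the highest level at 81.1 CPM per kb. The vitronectin receptor subunit Itgb5 was the next β subunit at 25.6 CPM per kb, and Itgb3, Itgb7 and Itgb4 lay between 2.59 and 5.01. Of the α subunits, the fibronectin receptor Itga5 and the laminin receptors Itga6 and Itga3 stood at 29.1, 20.7 and 18.1 CPM per kb. Itga6 stood first, at 43.4 against 32.5 for Itga5 and 21.3 for Itga3, when the longest transcript was the length, so no order is drawn between these genes. Itgav, a partner of Itgb3, Itgb5, Itgb6 and Itgb8, reached 4.38 CPM per kb. With the union of exons as the length, the remaining α subunits lay between 0.218 for Itga4 and 1.93 for Itga9, while with the longest transcript Itga7 was the highest of them at 3.69 and Itga9 stood at 2.12. By exon union, Itgb6, Itgb8 and Itgb2 were at 0.403, 0.233 and 0.0738. By ligand class, the summed level in cAMP was 40.4 ± 1.47 CPM per kb (SD, n = 2) for the 3 laminin-binding α subunits, 34 ± 2.06 for the 4 RGD-binding ones and 1.63 ± 0.0298 for the 4 collagen-binding ones. With the longest transcript as the length these sums were 68.4 ± 2.61, 40.5 ± 2.83 and 1.93 ± 0.00576, so the distance between the first and second class depends on the length.

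**Figure D1:**
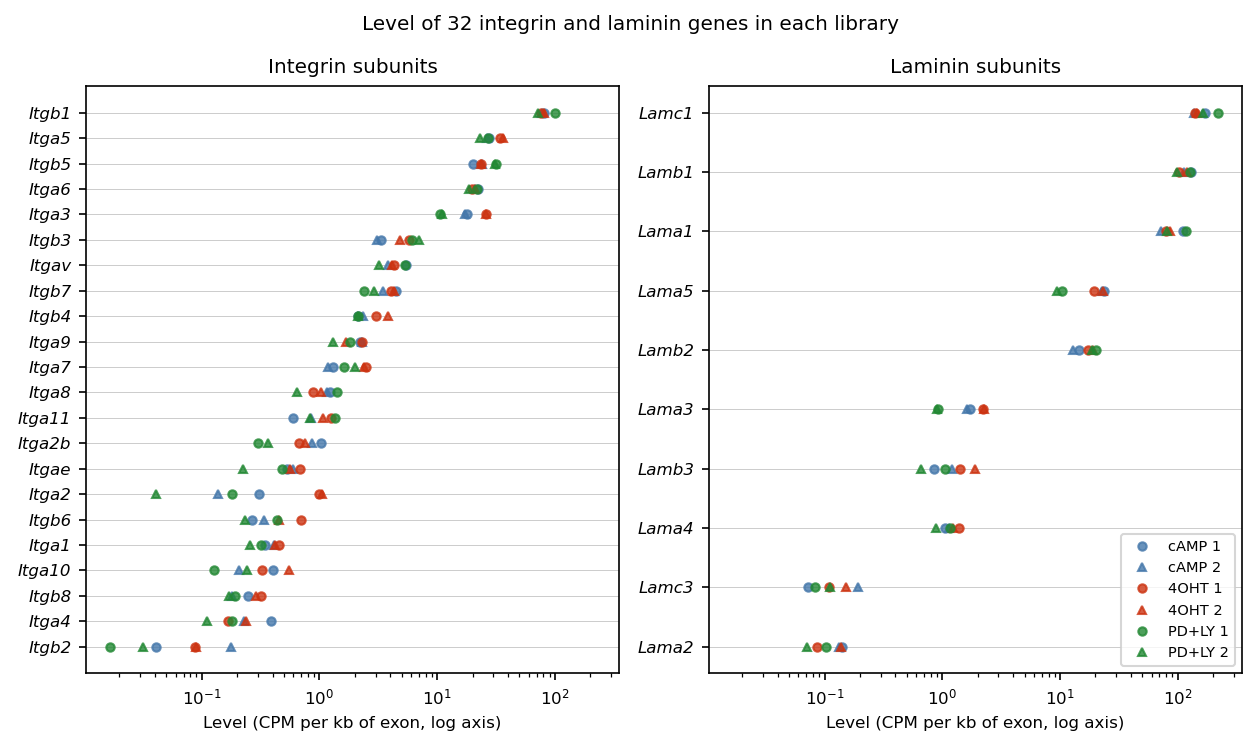
Level of each of the 32 genes in each library in CPM per kb of exon on a log axis, ordered by the mean, with circles for replicate 1 and triangles for replicate 2 of each group. Lamc1, Lamb1 and Lama1 have the highest means, at 163, 115 and 91.3, Itga2 lies higher in both 4OHT libraries than in the other 4, and Lama5 and Itga3 lie lower in both PD+LY libraries than in the other 4.

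In 4OHT against cAMP, 1 of the 31 tested members was called higher and 0 were called lower. A call required a 2-fold or larger difference with an adjusted p below 0.05 in edgeR's quasi-likelihood test. DESeq2 called the same gene, and at an unadjusted p below 0.05 edgeR had 11 members higher and 0 lower. Of all 15256 tested genes, 1.17% were called higher and 1.51% lower, so the members' count was near the background. With the adjusted p alone, 7 members were higher and 0 lower, where 4.04% and 4.35% of all genes were. The median log2 fold change of the members was 0.13, beside 0 for all tested genes. The log2 fold change was positive for 14 of 21 integrins and for 4 of 10 laminins. The 7 genes were the integrins Itga2, Itga3, Itga5, Itga7, Itgb3 and Itgb4 and the laminin chain Lamb2.

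The called gene was Itga2, the α subunit of a collagen receptor of epithelia and platelets, which lies on the minus strand at chr13:114833081-114932100 of GRCm38. It was at 2.2 and 0.975 CPM in cAMP, 7.01 and 7.46 CPM in 4OHT and 1.27 and 0.292 CPM in PD+LY, from 35, 20, 105, 136, 25 and 6 counts. Both 4OHT libraries stood above all others, and the cAMP and PD+LY ranges overlapped. In 4OHT against cAMP the log2 fold change was 2.22 ± 0.46 (SE), a 4.66-fold higher level (edgeR adjusted p = 0.0133). This call was lost when 4OHT replicate 1 (adjusted p = 0.0891), 4OHT replicate 2 (0.098) or cAMP replicate 2 (log2 fold change 1.72, adjusted p = 0.0682) was left out. In bulk RNA such as this, fewer cells of a type and less RNA per cell cannot be told apart.

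The other 3 collagen-binding α subunits did not pass the test with 4OHT. Itga1, the collagen receptor gene that neighbours Itga2 on the same strand of chromosome 13 with 20995 bases between them, had 6.42 and 7.7 CPM in cAMP and 8.47 and 7.73 CPM in 4OHT, a log2 fold change of 0.19 ± 0.21. For Itga10 and Itga11, receptors of cartilage and fibroblasts, the log2 fold changes were 0.56 ± 0.47 and 0.66 ± 0.29. Of the Itga10 exon bases, 33.53% also belong to the annotated gene Gm42957, and reads counted without strand cannot be divided between overlapping genes, so the Itga10 values are uncertain. The summed level of the class was 1.63 ± 0.0298 CPM per kb in cAMP and 3.05 ± 0.0594 in 4OHT (SD, n = 2), and Itga2 and Itga11 carried most of that difference.

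Members higher with 4OHT by less than 2-fold included laminin receptors. Itga3, an epithelial laminin receptor subunit, was at 102 and 98.2 CPM in cAMP and 148 CPM in both 4OHT libraries, a log2 fold change of 0.56. Itga7, known best as the laminin receptor of muscle, was at 10.6 and 9.6 CPM in cAMP and at 20 and 19.5 CPM in 4OHT, a log2 fold change of 0.97. Itgb4, the hemidesmosome subunit that pairs with Itga6, was at 15 and 16.4 CPM in cAMP and at 21 and 26.7 CPM in 4OHT, a log2 fold change of 0.60, and 7.66% of its exon bases overlap B230344G16Rik on the opposite strand. In all of them the 4OHT libraries stood above the cAMP libraries. Itga6 itself did not pass, at -0.08 ± 0.10.

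The fibronectin receptor Itga5, the αv partner Itgb3 and the laminin chain Lamb2 were higher in 4OHT than in cAMP with log2 fold changes of 0.37, 0.74 and 0.41. Without 1 of the 4OHT libraries the adjusted p of each of these 6 under-2-fold genes rose past 0.05, up to 0.0645 for Itga7, 0.071 for Itga3 and 0.142 for Itgb3 without 4OHT replicate 1, and up to 0.307 for Lamb2, 0.318 for Itga5 and 0.349 for Itgb4 without 4OHT replicate 2. Lama3 and Lamb3 had log2 fold changes of 0.43 ± 0.14 and 0.68 ± 0.26 that did not pass (edgeR adjusted p = 0.0806 and 0.14). Lama5, Lama1, Lamb1 and Lamc1 lay between -0.14 and -0.10 and did not pass.

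**Figure D2:**
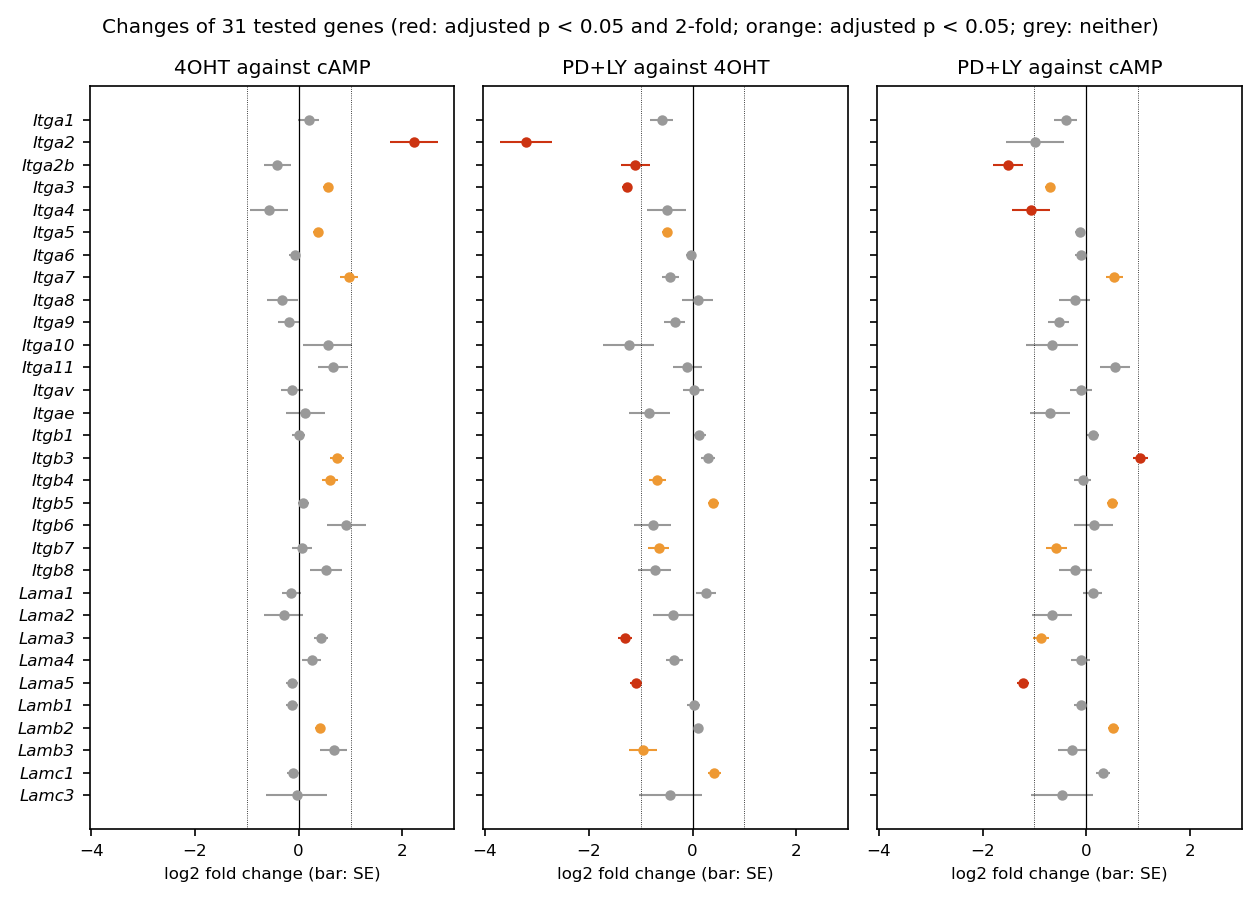
The log2 fold change of each of the 31 tested genes in each comparison with its SE as a bar, red where the adjusted p was under 0.05 and the difference at least 2-fold, orange where only the adjusted p was, and grey otherwise. Itga2 lies at 2.22 in the first panel and at -3.21 in the second, and in the second panel the other red points are Itga2b, Itga3, Lama3 and Lama5, all to the left of 0.

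In PD+LY against 4OHT, 5 members were lower by at least 2-fold and 0 were higher by edgeR, and DESeq2 called the same 5 genes. At an unadjusted p below 0.05, edgeR had 13 members lower and 3 higher. Of all tested genes 4.9% were called lower and 2.35% higher. With the adjusted p alone 9 of the 31 members were lower and 2 higher, beside 12.1% and 10.7% of all genes. The median log2 fold change of the members was -0.43, that of all tested genes 0.01, and 22 of the 31 members had a negative sign. The 5 called genes were 3 integrin α subunits, Itga2, Itga2b and Itga3, and 2 laminin α chains, Lama3 and Lama5.

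For 3 of these 5 genes, lower in the same comparison, the bases before the RefSeq transcription start are shown. Itga2b also had a window, which is not shown. The windows of Itga2 (chr13:114932101-114932350) and Lama5 (chr2:180225860-180226109) are the 250 bases before the start, both on the minus strand of GRCm38.p6 and written 5′ to 3′ along the gene, and for Itga3 the 30 bases around the only motif match are given (chr11:95076786-95076815, minus strand). Capitals mark the letters of the motif.
Itga2: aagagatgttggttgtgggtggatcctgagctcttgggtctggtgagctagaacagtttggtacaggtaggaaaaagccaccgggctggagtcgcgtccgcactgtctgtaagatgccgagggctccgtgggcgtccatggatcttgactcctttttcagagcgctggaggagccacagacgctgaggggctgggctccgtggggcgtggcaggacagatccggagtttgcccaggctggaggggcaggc
Lama5: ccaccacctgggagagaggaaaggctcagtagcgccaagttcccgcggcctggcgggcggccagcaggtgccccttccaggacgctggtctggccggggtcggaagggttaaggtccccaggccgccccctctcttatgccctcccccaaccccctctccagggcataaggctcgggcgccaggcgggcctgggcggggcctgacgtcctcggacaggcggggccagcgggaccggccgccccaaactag
Itga3: ttttctctttccCCGGAAggaaagcggagc

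The letters searched on both strands were CCGGAA for ETS factors, TGAGTCA for AP-1, TGACGTCA for the cAMP response element and TGTTTAC for FOXO factors. Of the 32 members 21 had a window in the RefSeq table, and among these Itga3 alone held a match, to the ETS letters, overlapping no other motif. The match was at -89 bases from the start of 1 of its 2 RefSeq windows, and the other window held none. The letters span the start of Itga3 in GENCODE, at base 95076801, so they are upstream of the RefSeq start only. Of all 32851 windows, 12.03% held the ETS letters, 4.463% the AP-1, 1.546% the cAMP response element and 3.166% the FOXO letters. The Itga2 window had 60.8% G and C, the Lama5 window 72.4% and the Itga2b window 54%, beside a median of 52.4% over all windows. Of the 2 Itga3 windows, that with the match had 67.6% and the other 50.8%. A match or its absence is a description of these letters only.

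Itga2 had the largest change of the members in this comparison. Both PD+LY libraries (1.27 and 0.292 CPM) stood below both 4OHT libraries (7.01 and 7.46 CPM), a log2 fold change of -3.21 ± 0.50 and a 9.26-fold lower level (edgeR adjusted p = 0.000937). Leaving out 1 library moved the log2 fold change between -4.60 without PD+LY replicate 1 and -2.50 without PD+LY replicate 2, and the call was kept each time.

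Itga3, on the minus strand at chr11:95044474-95076801, was at 148 CPM in both 4OHT libraries and at 60.6 and 62.9 CPM in PD+LY. Every PD+LY library lay below every 4OHT and every cAMP library. Its log2 fold change was -1.26 ± 0.09, a 2.39-fold lower level (edgeR adjusted p = 7.48e-06), and between -1.29 and -1.23 with any library left out. Its share of all integrin α transcripts, set per kb, was 22.2% ± 0.362 in cAMP, 27.1% ± 0.546 with 4OHT and 16.2% ± 2.3 under PD+LY (SD, n = 2, no test). The other laminin receptor α subunits did not pass, with -0.03 ± 0.10 for Itga6 and -0.43 ± 0.16 for Itga7.

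Itga2b, the α subunit of the platelet fibrinogen receptor at chr11:102453297-102470122, was a low member. It was at 3.67 and 4.11 CPM in 4OHT and at 1.63 and 1.99 CPM in PD+LY, from 55, 75, 32 and 41 counts, and these ranges did not overlap. Its log2 fold change was -1.10 ± 0.28, a 2.15-fold lower level (edgeR adjusted p = 0.0164), and the call was lost without 4OHT replicate 1 (0.0584), 4OHT replicate 2 (0.126) or PD+LY replicate 1 (0.0612). Of the 7 megakaryocyte and platelet markers only 2, Ppbp and Gp1ba, reached 3 counts in every library. Gp9 had no count in any, and Gp1bb, Gp6 and Pf4 did not exceed 0.267 CPM. The summed list, carried by Ppbp, went from 10.3 and 9.44 CPM in 4OHT to 3.21 and 4.52 CPM in PD+LY. Gp1ba did not pass, at 2.47 and 2.52 CPM in 4OHT and 1.99 and 2.43 CPM in PD+LY (-0.18 ± 0.32, edgeR adjusted p = 0.73). The part of this list in the Itga2b difference was not tested.

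Lama5, the laminin α chain of many mature epithelia at chr2:180176373-180225859, was at 220 and 264 CPM in 4OHT and at 120 and 107 CPM in PD+LY. Both PD+LY libraries lay below the other 4. PD+LY against 4OHT gave a log2 fold change of -1.09 ± 0.11, a 2.13-fold lower level (edgeR adjusted p = 4.96e-05), and it fell short of 2-fold without 4OHT replicate 2 (-0.95). Lama3, the α chain of the hemidesmosome laminin, on chromosome 18, was at 24 and 24.1 CPM in 4OHT and at 9.88 and 9.68 CPM in PD+LY. Its log2 fold change was -1.30 ± 0.14, a 2.46-fold lower level (edgeR adjusted p = 0.000122), and between -1.31 and -1.28 with any library left out.

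**Figure D3:**
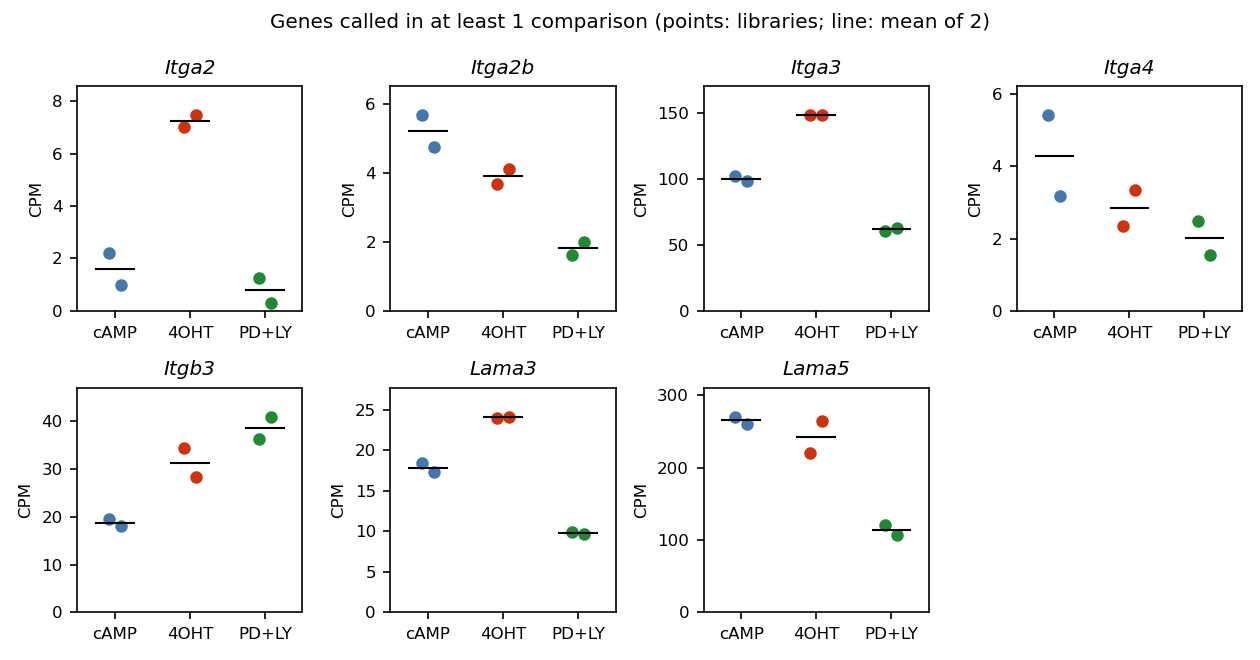
CPM in each library for the 7 genes called in at least 1 comparison, with the mean of the 2 libraries of a group as a line and each axis starting at 0. Itga2, Itga3 and Lama3 have their highest points in 4OHT, Itga2b and Lama5 their lowest in PD+LY, Itgb3 lies lowest in cAMP, and the Itga4 points of neighbouring groups overlap.

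Lama1, the main laminin α chain, did not follow Lama5. It was at 770 and 837 CPM in 4OHT and at 1140 and 781 CPM in PD+LY, and these ranges overlapped, with a log2 fold change of 0.26 ± 0.19 (edgeR adjusted p = 0.342). The share of Lama1 among laminin α transcripts per kb was 77.2% ± 4.85 in cAMP, 77% ± 0.873 with 4OHT and 89% ± 1.81 under PD+LY (SD, n = 2, no test). For Lama5 it was 20.3% ± 4.26, 19.6% ± 1.16 and 9.15% ± 1.56 in the same order. Both PD+LY libraries, at 90.3% and 87.7% Lama1, were above the 4 others, which ran from 73.8% to 80.6%. Lama2 and Lama4, chains known from muscle and vessels, did not pass, with -0.37 ± 0.40 and -0.35 ± 0.17.

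**Figure D4:**
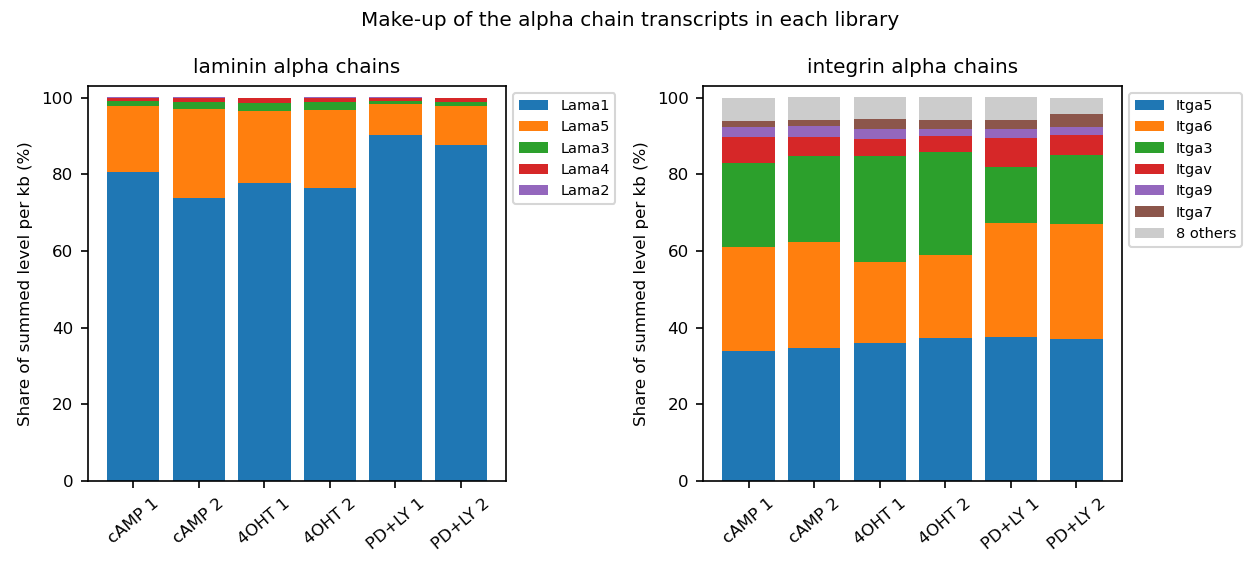
Share of each chain in the summed level per kb of the 5 laminin α chains (left) and the 14 integrin α subunits (right) in each library, in percent. Lama1 takes 87.7% and 90.3% in the PD+LY libraries and 73.8% to 80.6% in the others, and the Itga3 share is 14.6% and 17.9% in PD+LY against 26.7% and 27.5% in 4OHT.

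Further members were lower in PD+LY than in 4OHT by less than 2-fold. Lamb3, the β chain that joins Lama3, was at 9.34 and 12.5 CPM in 4OHT and at 6.93 and 4.33 CPM in PD+LY, a log2 fold change of -0.96. Itgb4 was at 21 and 26.7 CPM against 14.9 CPM in both PD+LY libraries, a log2 fold change of -0.68. Itgb7, a β subunit of lymphocyte receptors, and Itga5 had log2 fold changes of -0.65 and -0.49. Without 4OHT replicate 2 the adjusted p of these 4 rose to between 0.0905 for Itga5 and 0.213 for Lamb3. Outside the list, the hemidesmosome collagen Col17a1 was lower as well, at 8.27 and 11.3 CPM in 4OHT and 4.33 and 3.7 CPM in PD+LY (-1.29 ± 0.23, edgeR adjusted p = 0.00214). The hemidesmosome genes Plec and Dst did not pass, at -0.11 ± 0.11 and -0.12 ± 0.18. Of the 7 hemidesmosome and tetraspanin genes tested, 3 had a positive log2 fold change here, and the tetraspanin Cd9 was higher (0.39, edgeR adjusted p = 0.0117).

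The members higher in PD+LY than in 4OHT were Itgb5 and Lamc1. Itgb5 was at 83.7 and 83.9 CPM in 4OHT and at 112 and 110 CPM in PD+LY, a log2 fold change of 0.40 that was lost without 4OHT replicate 2 (edgeR adjusted p = 0.142). Lamc1, the γ chain of most laminins, was at 1170 and 1200 CPM in 4OHT and at 1810 and 1370 CPM in PD+LY, a log2 fold change of 0.42 that was lost without PD+LY replicate 1 (edgeR adjusted p = 0.195). The β1 subunit Itgb1 was at 311 and 331 CPM in 4OHT and at 405 and 295 CPM in PD+LY, so that the PD+LY libraries lay on either side of the 4OHT libraries (0.13 ± 0.13). PD+LY replicate 1 was above replicate 2 for Lama1, Lamb1, Lamc1, Itgb1, Itgav and Itga8 alike. For each of these genes cAMP replicate 1 was also above cAMP replicate 2, with 1070 against 701 CPM for Lama1 and 330 against 314 CPM for Itgb1. Over all genes, replicates differed more in PD+LY than in the other groups (chi-square over its degrees of freedom 17.6, against 8.26 in cAMP and 4.53 in 4OHT).

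In PD+LY against cAMP, 3 members were lower by at least 2-fold (Itga2b, Itga4 and Lama5) and 1, Itgb3, was higher. Of all tested genes 6.24% were called lower and 3% higher, and with the adjusted p alone 13.7% were lower and 12.1% higher, beside 6 and 4 members. The median log2 fold change was -0.21 for the members and 0 for all tested genes. This comparison shares its PD+LY libraries with the last one and its cAMP libraries with the first, so the 3 sets of values are not independent.

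Lama5 stood at 270 and 260 CPM in cAMP against 120 and 107 CPM in PD+LY, a log2 fold change of -1.22 ± 0.11 and a 2.34-fold lower level (edgeR adjusted p = 1.27e-05). It was 2-fold lower in PD+LY than in either other group, while 4OHT and cAMP did not differ by the test (-0.13 ± 0.11, edgeR adjusted p = 0.489). Itga2b was at 5.66 and 4.73 CPM in cAMP against 1.63 and 1.99 CPM in PD+LY, a log2 fold change of -1.51 ± 0.28 (edgeR adjusted p = 0.0021).

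Itgb3, the β subunit that pairs with Itgav or Itga2b, was at 19.5 and 18 CPM in cAMP, 34.3 and 28.4 CPM in 4OHT and 36.3 and 40.9 CPM in PD+LY. All libraries of both other groups lay above the cAMP libraries. Between PD+LY and cAMP the log2 fold change was 1.04 ± 0.14, a 2.06-fold higher level (edgeR adjusted p = 0.00027), and it fell to 0.99 without cAMP replicate 2 and to 0.95 without PD+LY replicate 2, under the 2-fold limit. PD+LY did not differ from 4OHT by the test (0.30 ± 0.14, edgeR adjusted p = 0.133). Its main partner Itgav passed in no comparison, between -0.13 and 0.02, and 5.9% of its exon bases overlap Gm13684 on the opposite strand.

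Itga4, a receptor subunit for VCAM1 and fibronectin on leukocytes, was at 5.41 and 3.17 CPM in cAMP, 2.34 and 3.35 CPM in 4OHT and 2.5 and 1.56 CPM in PD+LY. The PD+LY values lay below the cAMP values, and the 4OHT values overlapped both groups. The log2 fold change of PD+LY against cAMP was -1.07 ± 0.36 (edgeR adjusted p = 0.0494), close to the limit. It was lost with DESeq2 (adjusted p = 0.0686), with size factors of the DESeq2 kind (0.0509) and in a fit of the 4 libraries compared (0.0722), and without cAMP replicate 1, either 4OHT library or PD+LY replicate 2. Of its exon bases 8.04% overlap Cerkl on the opposite strand. Itga9, its relative that binds tenascin C, had -0.53 ± 0.20 and did not pass.

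Under the 2-fold limit, Itgb5 (0.50), Itga7 (0.54) and Lamb2 (0.52) were higher in PD+LY than in cAMP, and Itga3 (-0.70), Lama3 (-0.87) and Itgb7 (-0.58) were lower. Itga3, Lama3 and Lamb2 kept an adjusted p under 0.05 with any 1 library left out, the largest being 0.0499 for Lamb2. Itga7 lost it without cAMP replicate 2 (0.172), and Itgb5 and Itgb7 without cAMP replicate 1 (0.0837 and 0.313). Lamb2, the β chain of mature vascular and kidney basement membranes, took 10% ± 0.0626 of laminin β transcripts per kb in cAMP, 13.9% ± 0.52 with 4OHT and 14.8% ± 1.65 under PD+LY (SD, n = 2, no test).

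Itga2 did not differ between PD+LY and cAMP by the test, at -0.99 ± 0.56 (edgeR adjusted p = 0.22). Without PD+LY replicate 1 it was lower, at -2.37 (edgeR adjusted p = 0.018). With 6 counts in PD+LY replicate 2 and 20 in cAMP replicate 2, counts are too few to fix the size of this difference.

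The members that passed in no comparison were Itga1, Itga6, Itga8, Itga9, Itga10, Itga11, Itgav, Itgae, Itgb1, Itgb6, Itgb8, Lama1, Lama2, Lama4, Lamb1 and Lamc3. Among the abundant ones the SE was 0.10 for Itga6, 0.12 for Lamb1 and 0.13 for Itgb1, and the log2 fold changes of these genes in the 3 comparisons lay between -0.13 and 0.13. Lama1, abundant as well, had an SE of 0.19 and log2 fold changes between -0.14 and 0.26. Among the low ones the SE was larger: Itgb6, an epithelial αv partner that activates TGF-β, was at 1.89 and 2.39 CPM in cAMP, 4.94 and 3.24 CPM in 4OHT and 3.11 and 1.65 CPM in PD+LY, with 0.92 ± 0.37 in 4OHT against cAMP. Itgb8, which also activates TGF-β, had 0.52 ± 0.31 and Itgae, the receptor subunit for E-cadherin on lymphocytes in epithelia, 0.13 ± 0.38. Lamc3, at 7 to 24 counts per library, had an SE of 0.59 to 0.61, so that a 2-fold difference was not detectable at this depth. Itga8, the nephronectin receptor subunit, varied from 4.72 to 10.4 CPM within PD+LY.

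Marker lists moved between the groups as well. The summed 7 pluripotency markers were at 3230 and 3190 CPM in cAMP, 3760 and 3590 CPM in 4OHT and 3830 and 4170 CPM in PD+LY. In each comparison 0 of these 7 were called. With the adjusted p alone, 4 were higher and 1 lower in PD+LY against cAMP, with Nanog at 0.89 and Utf1 at -0.98. Beside these, 12.1% of all tested genes were higher and 13.7% lower. The summed 12 epithelial markers went from 1270 and 1380 CPM in cAMP to 960 and 1090 CPM in 4OHT and 857 and 899 CPM in PD+LY. By the call, 2 of them were lower and 1 higher (Krt7) in 4OHT against cAMP, and 5 lower and 0 higher in PD+LY against 4OHT. Cdh1 went the other way there, from 269 and 292 CPM to 434 and 455 CPM (0.67 ± 0.09, edgeR adjusted p = 0.000311). From 4OHT to PD+LY the 4 basal epithelial markers went from 35.6 and 46.1 CPM to 18.8 and 26.3 CPM, with 1 lower (Krt5). Krt17 was lower by less than 2-fold (-0.82), and Krt14 and Trp63 did not pass, at 0.06 ± 0.24 and -0.24 ± 0.64. Among other cell types, the 10 mesenchymal markers went from 1190 and 1290 CPM in cAMP to 2220 and 2340 CPM in 4OHT and 4640 and 3970 CPM in PD+LY, carried by Col1a1, Col1a2 and Col3a1, while Pdgfrb and Twist1 were lower by the call in PD+LY against 4OHT. The 7 muscle markers went from 255 and 240 CPM in 4OHT to 490 and 362 CPM in PD+LY. Of these, 5 reached 3 counts in every library, and Myod1 and Myog did not. The rise was in Acta2 (0.79), Tagln (0.69), Myh11 (1.25) and Cnn1 (1.36), while Myh3 did not pass, at -0.43 ± 0.30. Of the 8 leukocyte markers 4 reached 3 counts in every library, Ptprc and Adgre1 had no count in any, and the list, carried by Cd68, went from 60 and 68.2 CPM in 4OHT to 33.9 and 36.5 CPM in PD+LY. The 8 thyroid markers went from 1650 and 1100 CPM in cAMP to 570 and 760 CPM in 4OHT and 1970 and 985 CPM in PD+LY, carried by Tg, with 5 markers higher by the call and 0 lower in PD+LY against 4OHT. The sum of the 8 endothelial markers ran from 168 to 191 CPM, carried by Pecam1 at 128 to 171 CPM. Pecam1 was higher in 4OHT than in cAMP by less than 2-fold (0.36 ± 0.09, edgeR adjusted p = 0.0271). In the same comparison 4 endothelial markers were lower by the call: Tie1 (-3.46), Kdr (-2.31), Cldn5 (-1.98) and Cdh5 (-1.47). The sum of the 11 markers of extraembryonic endoderm ran from 722 to 905 CPM. That of the 6 neural ones ran from 111 to 169 CPM. Single genes within these sums moved. Among the endoderm markers, Dab2 (-1.28) and Amn (-1.94) were lower by the call from 4OHT to PD+LY. Ttr and Pth1r were higher there by less than 2-fold (0.49 each). From cAMP to PD+LY, Dab2, Amn and Afp (-3.8) were lower by the call and 0 were higher. Among the neural markers, Sox1 was lower by the call with 4OHT (-1.29) and Stmn2 with the inhibitors added (-1.43). Pax6 (0.65) and Nes (0.52) rose with the inhibitors by less than 2-fold. The part of the marker list shifts in the integrin and laminin differences was not tested. Beside the called counts of the marker lists, 1.17% of all tested genes were called higher and 1.51% lower in 4OHT against cAMP. These shares were 2.35% and 4.9% in PD+LY against 4OHT, and 3% and 6.24% in PD+LY against cAMP.

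**Figure D5:**
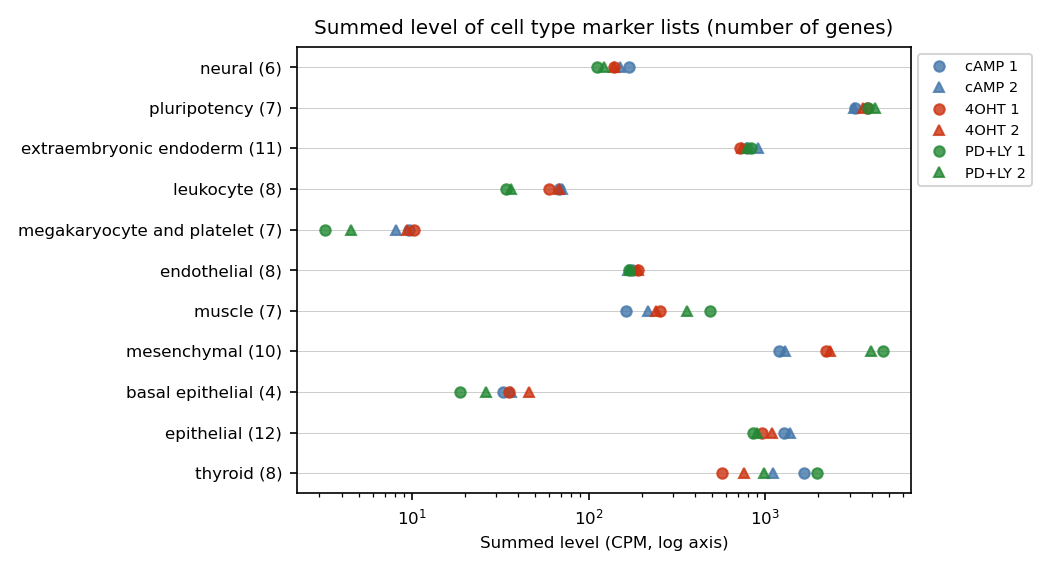
Summed CPM of each cell type marker list in each library on a log axis, with the number of genes of the list in parentheses. The mesenchymal list is lowest in cAMP and highest in PD+LY, and the basal epithelial, leukocyte and megakaryocyte and platelet lists are lowest in both PD+LY libraries.

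Of the 22 other basement membrane genes, 3 were lower and 0 higher in 4OHT than in cAMP by the call in edgeR, and 5 were lower and 2 higher at an unadjusted p below 0.05. DESeq2 also called 3. These were Fras1 and Frem2, which form a complex that joins epithelium to the matrix in embryos, and the matricellular gene Smoc2, at -1.38 ± 0.32, -1.02 ± 0.25 and -1.20 ± 0.29. In PD+LY against 4OHT all 3 were higher, at 1.03 ± 0.32, 1.78 ± 0.24 and 2.21 ± 0.28, as was the netrin Ntn4 (1.45 ± 0.35), and Col15a1, a collagen of the outer basement membrane, was lower (-2.17 ± 0.16). Col15a1 was at 25.5 and 21.6 CPM in cAMP, 35.3 and 36.6 CPM in 4OHT and 9.02 and 6.95 CPM in PD+LY. In PD+LY against cAMP 2 were higher (Smoc2 at 1.01 and Ntn4 at 1.35) and Col15a1 was lower (-1.56). The 3 calls in 4OHT against cAMP depended on single libraries, since 0 of the 22 genes were called without either cAMP library or without 4OHT replicate 1, and 1 without 4OHT replicate 2. With the adjusted p alone, 3 of the 22 were lower and 1 higher with 4OHT, 1 was lower and 10 were higher with the inhibitors added (beside 12.1% and 10.7% of all genes), and 2 were lower and 10 higher from cAMP to PD+LY (beside 13.7% and 12.1%).

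Of the 18 other integrin ligands 17 were tested. In 4OHT against cAMP the osteopontin gene Spp1 was higher, at 607 and 517 CPM in cAMP and 1150 and 1160 CPM in 4OHT (1.04 ± 0.10), and so was the tenascin Tnn (1.91 ± 0.46), and none was called lower. In PD+LY against 4OHT 4 were higher, among them periostin (Postn, 1.95 ± 0.18) and tenascin C (Tnc, 1.16 ± 0.16), with Tnn (2.26 ± 0.34) and vitronectin (Vtn, 1.91 ± 0.48). Lower were Ccn1 (-1.04 ± 0.15), the Itga4 ligand Vcam1 (-1.37 ± 0.20) and the Itgb7 receptor ligand Madcam1 (-1.65 ± 0.41). In PD+LY against cAMP Postn (2.53), Tnc (1.44), Tnn (4.18) and Vtn (1.76) were higher and Madcam1 (-1.99) was lower. With the adjusted p alone, 6 of the 17 were higher and 1 lower with 4OHT, 7 were higher and 5 lower with the inhibitors added, and 8 were higher and 3 lower from cAMP to PD+LY. Beside this list and the basement membrane list, 1.17% of all genes were called higher and 1.51% lower in 4OHT against cAMP. The shares were 2.35% and 4.9% in PD+LY against 4OHT, and 3% and 6.24% in PD+LY against cAMP. With the adjusted p alone they were 4.04% and 4.35%, 10.7% and 12.1%, and 12.1% and 13.7%, in the same order.

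Inside the cell, 28 integrin adaptor and focal adhesion genes were tested. With 4OHT against cAMP, edgeR and DESeq2 each called 0, and 3 were higher and 3 lower at an unadjusted p below 0.05 in edgeR. Under PD+LY against 4OHT the kindlin Fermt1 alone was called, at 1.07 and 1.54 CPM in 4OHT and 0.407 and 0.535 CPM in PD+LY (-1.46 ± 0.47, edgeR adjusted p = 0.0432), a call lost with DESeq2 and with any 1 library left out. Against cAMP Fermt1 was lower in PD+LY, with a log2 fold change of -2.46. With the adjusted p alone, 2 of the 28 were lower and 0 higher with 4OHT, 6 were lower and 3 higher with the inhibitors added, and 7 were lower and 1 higher from cAMP to PD+LY. The shares of all genes to set beside these counts are those given with the members in each comparison. Of the 7 hemidesmosome and tetraspanin genes only Col17a1 was called, in PD+LY against 4OHT, and of the 3 tested of 6 family members outside the list Itgal, an α subunit of leukocytes, was called there as well (-1.05 ± 0.23, edgeR adjusted p = 0.00812), a call lost without 4OHT replicate 2 or PD+LY replicate 1. Of the 6 ERK feedback and target genes 0, 4 and 5 were lower and 0 higher in the 3 comparisons in the order above. Of all tested genes 1.51%, 4.9% and 6.24% were called lower in the same order.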

How the data were processed

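The authors trimmed paired-end reads with Trimmomatic, mapped them to mm10 with HISAT2 and summed them by gene in HTSeq, unstranded although the library kit keeps strand. The versions of these 3 tools and the annotation are not given in the sources used here. The deposited values are these raw counts, 1 column per library, and no column was left unused (0). Counting without strand adds reads of overlapping genes, and 10 of the 32 members share exon bases with another gene in GENCODE M21.

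Counts were analysed in R 4.3.3 with edgeR 4.0.16: filterByExpr (minimum count 10, minimum total 15) kept 15256 genes and removed 9983, TMM factors were computed, and 1 quasi-likelihood model of the 3 groups was fitted to all 6 libraries, with Benjamini-Hochberg adjustment over all tested genes. A gene was called at an adjusted p under 0.05 and at least 2-fold. The procedure was tested on simulated data. CPM use TMM library sizes, and CPM per kb the union of GENCODE exons. A zero or low count is read against a floor of 3 counts, which covers counting error only. The biological coefficient of variation was 0.105.

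Members called in any comparison are given in full, members past the adjusted p alone by their log2 fold change, and the others by range. Genes of the related lists (other basement membrane genes, other integrin ligands, adaptors, hemidesmosome and tetraspanin genes, ERK targets, family members outside the list) are named if called, at most 4 per list and comparison. Some genes of these lists are not reported here by name. Members and lists were chosen with earlier results of these data known. Nov, Cyr61 and Ctgf were read as Ccn3, Ccn1 and Ccn2. Promoter windows come from RefSeq on GRCm38.p6. Alternatives were DESeq2 1.42.0, its size factors, other filters, fits of the groups compared, a replicate covariate, no fold limit, and each library left out. Figures were drawn with matplotlib 3.10.9.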

Additional observations from a re-analysis of the deposited data

How the results depend on the processing

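The members called numbered 1, 5 and 4 in the 3 comparisons, in the order of the report, and 7, 11 and 10 with the adjusted p alone. With at least 10 counts in every library, 0 members were called in 4OHT against cAMP, since Itga2 was then not tested. With 1 library left out, members called ranged from 0 (without cAMP replicate 2 or either 4OHT library) to 2 (without cAMP replicate 1, with Itga7 added) in the first, from 3 (without 4OHT replicate 2) to 7 (without PD+LY replicate 1, which added Itgae, Itgb6 and Lamb3 and lost Itga2b) in the second, and from 2 (without PD+LY replicate 2) to 6 (without PD+LY replicate 1, which added Itga2 and Itgae) in the third. Where only 1 library of a group was left, it was assumed to vary like the other groups. Without a filter Itga10 was also called lower in PD+LY against 4OHT. With the longest transcript as the length, the summed level of the laminin-binding α subunits in cAMP was 68.4 in place of 40.4 CPM per kb.

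Over all genes, 408, 1107 and 1409 were called in the 3 comparisons, and 1280, 3469 and 3925 with the adjusted p alone. In 4OHT against cAMP 164 were called without 4OHT replicate 1, 221 without 4OHT replicate 2 and 268 without cAMP replicate 1, and in PD+LY against 4OHT 632 without 4OHT replicate 2. No called member changed sign under any alternative run. With the replicate number as a replicate block, 1, 5 and 4 members were called, the same genes as without it. The differences between replicates 1 and 2 correlated at 0.072 between cAMP and 4OHT, 0.207 between cAMP and PD+LY and 0.059 between 4OHT and PD+LY, so the numbers were not taken to pair the samples.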
